A study of Mus musculus with 18 samples.

Results

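The comparison described here is Id3 knockout (Id3-KO) against wild type (WT) in mouse CD4 T cells of the Tcmp label at 72 h, with ATAC-seq, an assay that reads open chromatin from the places where a transposase can insert. It set 3 Id3-KO against 3 WT samples. All cells of the series, controls included, were naive CD4 T cells activated with beads carrying anti-CD3 and anti-CD28 and grown with IL-2, IL-12 and an antibody to IL-4, which steers them towards the Th1 fate. The other groups were Teff samples at 72 h and Th1 samples at 24 h, each with 3 samples per genotype, 18 samples in all. The labels do not spell out Tcmp or Teff, do not say how the knockout was made or how the labelled cells were obtained, and do not tell separate animals or cultures from repeat samples within a group. The p-values therefore measure only the spread between samples, which may be technical. The sources used here do not state which groups that spread was taken from.

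The data were the rows of the authors' deposited table that belong to this contrast, 65983 of 395898 rows over 6 contrasts. Each row gives 1 region with its number of windows (median 6, range 1 to 16), the log2 fold change of the region's best window, a p-value, and how many of its windows went up or down. The regions hold 409588 windows in all. No value is given for a single sample, so no fold change below has an SD over replicates or an n. The only error that can be had is the standard error implied by a deposited p-value, given further on. Library depth is unknown.

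Best-window p-values only rose or stayed level from the first row to the last, where the table shows them below 1, and the best window was the first of its region in 65983 of 65983 rows. The statistics were for this reason taken as a set ordered by p-value, with the running number of a window as its rank, and were not tied to any region or gene. No locus is named, the knocked-out gene could not be checked, and the cell label could not be set against marker genes. Of 17063 regions with several windows, all of them counted as up or down, 7409 (43.4%) held windows of both directions. Of all counted windows 90.4% went up. In the Teff contrast the shares were 71.8% and 77.2%, and in the Teff over Tcmp contrast of Id3-KO samples 0.27% and 0.046%. The share of mixed regions thus varied with the balance of directions. Alone it does not show whether values belong to their regions.

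Id3 is a small helix-loop-helix protein without a DNA-binding region. It pairs with E proteins such as E2A and HEB and keeps them off the DNA, so Id3 acts as a brake on factors that bind E-box sites in the enhancers of lymphocyte genes. In T cells the balance of Id and E proteins is known for its part in development, in the choice between effector and memory fates and in helper cell differentiation.

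As deposited, most differences in Tcmp cells were gains of accessibility in the knockout, and the larger a difference was, the more often it was a gain, up to a log2 fold change of 4. An adjusted p of 0.05 (Benjamini-Hochberg over windows) was passed by 130324 of 409588 windows (31.8%). Among the 21121 listed windows (the best windows, the only ones with a fold change) up to that rank, 19104 were gains (median 2.23-fold) and 2017 were losses (median 2.27-fold). Gains of at least 4-fold numbered 3961 and losses of that size 204. The whole distribution was also displaced: its median log2 fold change was 0.51, and 83.0% of all listed windows lay above 0. With this median subtracted, p-values were recomputed and adjusted over the 65983 listed windows only, not over all windows. Past an adjusted p of 0.05, 6741 listed windows were then higher and 5166 lower (56.6% higher). Changes of at least 4-fold were 2279 gains and 610 losses with the median subtracted. By region, 12357 of 65983 (18.7%) were past the deposited adjusted p of 0.05, which is not a count of changed regions for the reason given above.

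Fold changes were alike on both sides of the threshold. The 5 listed windows just inside it had log2 fold changes of 0.63 to 0.64, and the 5 just outside had 0.64 to 0.72, all of them gains. Ranks follow the p-value, so neighbours in rank tend to be alike in size at any cut.

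**Figure D1:**
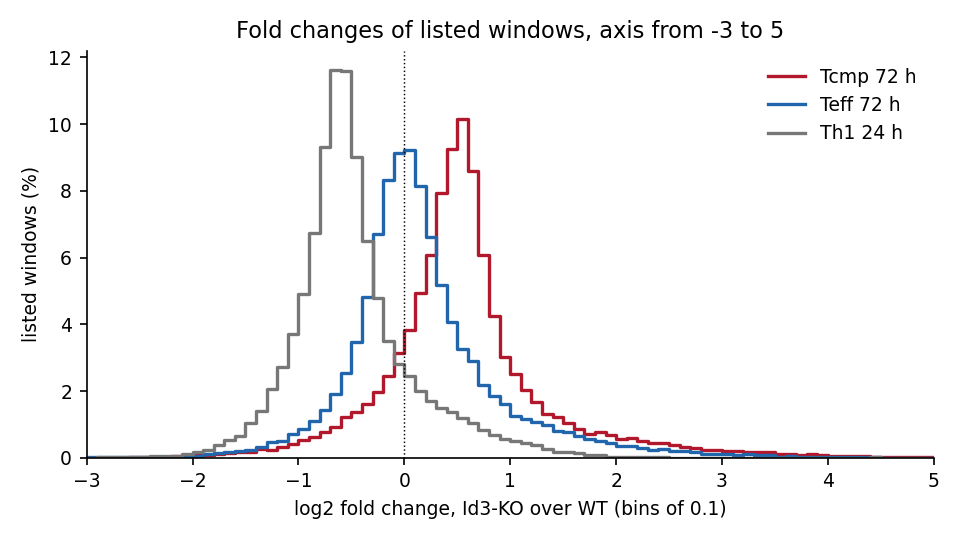
Share of listed windows (y axis, percent) in each bin of 0.1 of the log2 fold change, Id3-KO over WT (x axis, cut at -3 and 5), for the 3 knockout contrasts. The fullest bin lies at 0.5 to 0.6 in Tcmp, at 0 to 0.1 in Teff and at -0.7 to -0.6 in Th1 cells, and the Tcmp curve has a long right side.

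The distribution had a displaced centre and a right side longer than the left. The fullest bin of 0.1 held 10.2% of listed windows and ran from 0.5 to 0.6, so the commonest value was a gain of modest size and not 0. The quartiles were 0.19 and 0.82. On the right the 95th percentile was 2.18 and the 99th 3.57, while on the left the 5th was -0.62 and the 1st -1.45. The 99th percentile was thus 3.06 above the median and the 1st percentile 1.96 below it. The sources used here do not give the scaling of the libraries, so a shared change of all windows and a scaling offset cannot be told apart.

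At the top of the ranking nearly every window was a gain. In the authors' deposited table the first listed window had a log2 fold change of 5.98, the second -6.36, the third 4.86 and the fourth 4.82. Of the first 20 listed windows, which reach rank 141, 19 were gains, from 4.39 to 5.98, and the second was the only loss. In ranks 1 to 1000, 155 of 158 listed windows (98.1%, 95% Wilson interval 94.6 to 99.4) were gains, and the median gain was 22.3-fold. These intervals cover counting error only, and since overlapping windows share reads they are too narrow.

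The share of gains was lower further down the ranking but stayed near 90% long past the threshold. It was 97.2% in ranks 1001 to 5000, 97.6% in ranks 5001 to 10000 and 93.5% in ranks 10001 to 20000. From there it was nearly level, with 89.0% in ranks 20001 to 50000, 89.2% in ranks 50001 to 100000 and 90.7% in ranks 100001 to 200000. Only beyond rank 200000, among windows that were not past the threshold, did it come down, to 85.4% up to rank 300000 and 66.8% in the last bin. Losses therefore took their largest share within the threshold between ranks 20001 and 100000, where 535 and then 873 listed windows were lower.

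**Figure D2:**
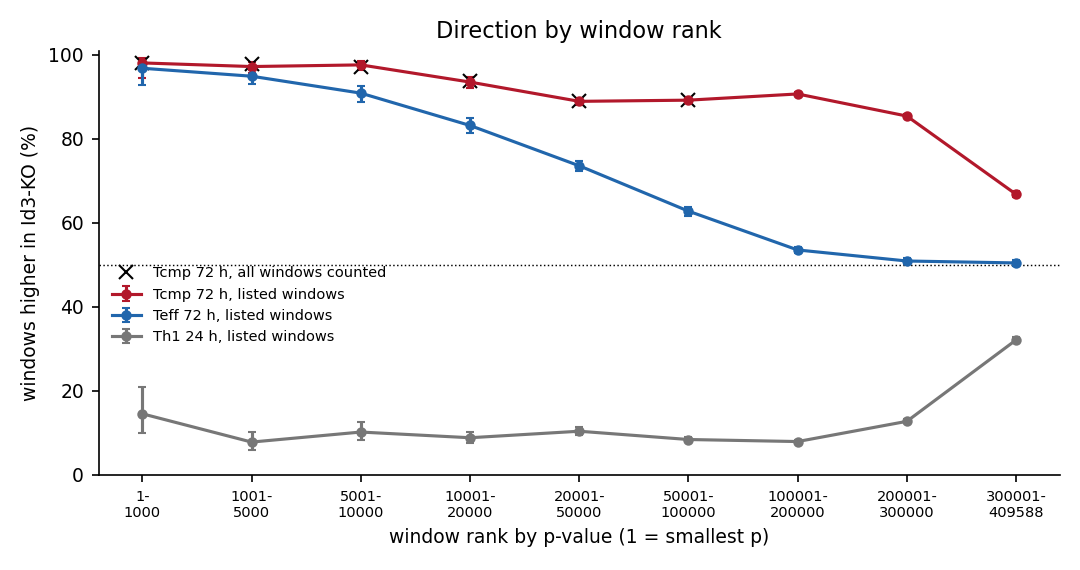
Share of windows higher in Id3-KO (y axis, percent) by bin of window rank (x axis), for listed windows of the 3 knockout contrasts with 95% Wilson intervals, and as crosses for all Tcmp windows counted as up or down. The crosses lie on the Tcmp line, which stays between 89.0% and 98.1% up to rank 200000, while the Teff line comes down from 96.8% to 50.5%.

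The direction of windows without a listed fold change could be read from the window counts. A region's windows were all counted as up or down where its p-value was at most 0.05 and none were otherwise, in 65983 of 65983 regions. This gave a direction for 106238 windows (25.9% of all), without a gap up to rank 89887. Of these, 96032 (90.4%) went up and 10206 went down in Id3-KO. In ranks 1 to 1000, 983 of 1001 windows went up (98.2%), and in ranks 20001 to 50000, 26686 of 30004 (88.9%). In the 6 bins where over 90% of windows were counted, this share differed from that of the listed windows by at most 0.59 percentage points. In these bins the listed windows thus stood for all windows in direction. A region's other windows follow its listed window in rank, so this closeness comes with the ordering. It cannot show how the best windows were chosen.

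Gains and losses of the same rank were of similar size. In ranks 1 to 1000 the median gain was 4.48 on the log2 scale and the 3 losses had a median of -3.93. In ranks 1001 to 5000 they were 3.40 and -3.69. In ranks 5001 to 10000 the medians were 2.69 for 784 gains and -2.54 for 19 losses, and in ranks 20001 to 50000 they were 1.58 (3.00-fold) and -1.57 (2.97-fold). Losses were slightly larger than gains in ranks 1001 to 5000 and again further down, with medians of -1.09 against 1.01 in ranks 50001 to 100000 and -0.76 against 0.66 in ranks 100001 to 200000. At a given rank the excess of gains thus lay in their number. Size at a given rank is tied to the standard error, because the rank follows the p-value.

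**Figure D3:**
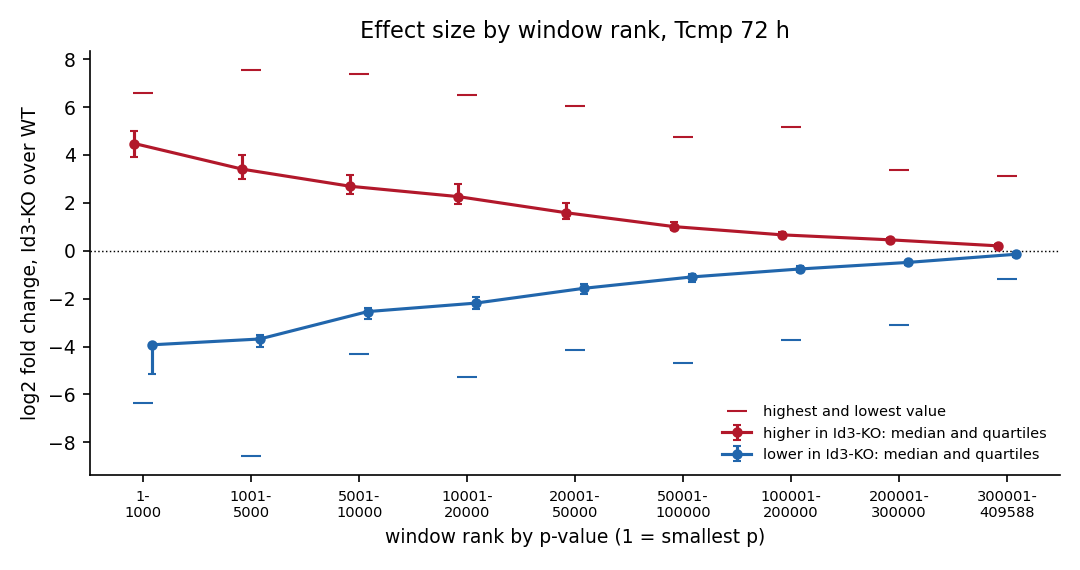
Log2 fold change, Id3-KO over WT (y axis), by bin of window rank (x axis) in the Tcmp contrast, with gains in red and losses in blue. Points are medians, bars quartiles and dashes the highest and lowest value; both medians shrink in step from 4.48 and -3.93 to 0.20 and -0.15.

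The deposited values allow the standard error behind each window to be estimated, as the size of its log2 fold change divided by the normal quantile of its p-value. Its median was 0.32 for gains and 0.34 for losses past the threshold. For gains it was 0.37 in ranks 1 to 1000 and 0.28 in ranks 100001 to 200000. For losses it was 0.34 in both bins, with only 3 losses in the first, and 0.42 over 18 losses in ranks 1001 to 5000. This restates the sizes given above in units of error: at middle ranks a loss needed a larger size to reach the same p-value as a gain. The 3929 strong gains, of 4-fold or more, past the threshold had a median standard error of 0.43, and the 32 that were not had 1.23. The selection fixes this order, since a change of that size misses the threshold only where its standard error is large.

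Strong losses made up 0.31% of listed windows, and strong gains were 19.4 times as many. The gains had a median log2 fold change of 2.64, quartiles of 2.27 and 3.26, and a highest value of 7.55 at rank 4339. The losses had a median of -2.36, quartiles of -2.88 and -2.15, and a lowest value of -8.56 at rank 1371, which was the largest change of either direction. Of the 3961 strong gains 3929 were past the threshold, where they formed 18.6% of listed windows, and of the 204 strong losses 195 were, or 0.92%.

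Strong changes of both directions lay near the top of the ranking, which follows the p-value. Strong gains were 98.1% of listed windows in ranks 1 to 1000, 97.2% in ranks 1001 to 5000 and 95.9% in ranks 5001 to 10000. Up to rank 5000 every listed gain and loss was strong, so there these shares only repeat the share of gains. Their share then dropped to 63.8% in ranks 10001 to 20000, 22.2% in ranks 20001 to 50000 and 2.76% in ranks 50001 to 100000. Strong losses were at most 4.43% of any bin, in ranks 10001 to 20000. The median rank was 13332 for strong gains and 19123.5 for strong losses. Within the first 50000 ranks lay 92.7% of the strong gains and 93.6% of the strong losses.

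The imbalance grew with the size of the change and then shrank at the extreme. There were 12434 gains and 1545 losses of at least 2-fold, or 8.05 gains per loss. At 4-fold the ratio was 19.4, at 8-fold 27.9 (1339 gains and 48 losses) and at 16-fold 38.1 (381 gains and 10 losses). Beyond that it came down, to 86 gains and 4 losses at 32-fold, 22 and 3 at 64-fold, and 4 and 2 at 128-fold.

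**Figure D4:**
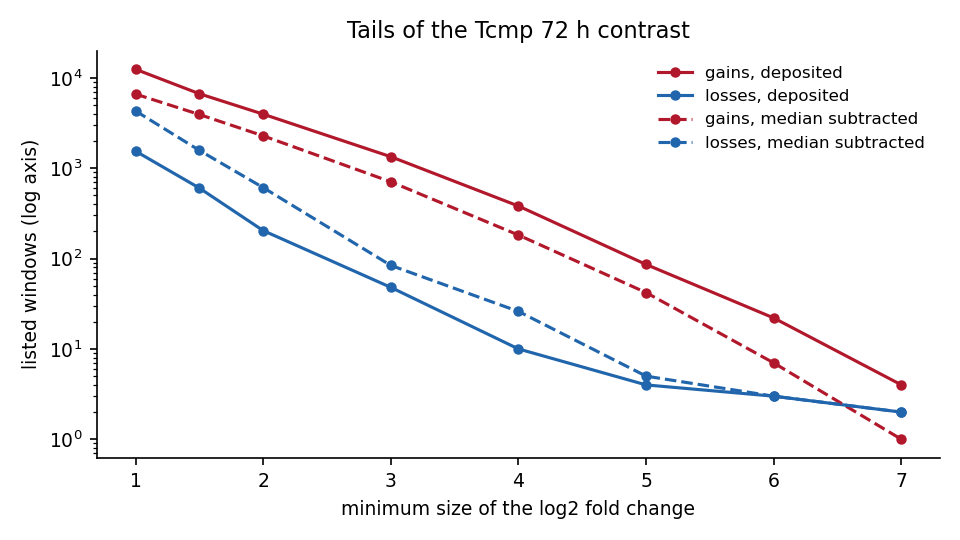
Number of listed windows in the Tcmp contrast (y axis, log scale) whose log2 fold change is at least as large as the value on the x axis, for gains (red) and losses (blue), as deposited (solid) and with the median of 0.51 subtracted (dashed). At a log2 fold change of 2 the solid lines stand at 3961 and 204 and the dashed lines at 2279 and 610.

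At the steps from 2-fold to 16-fold the number of gains depended on the displaced centre to a like degree. With the median subtracted, 53.2% of the number of gains was left at 2-fold, 57.5% at 4-fold, 52.8% at 8-fold and 47.8% at 16-fold. At 32-fold 86 gains became 42, at 64-fold 22 became 7 and at 128-fold 4 became 1. The gains per loss became 1.54 at 2-fold, 3.74 at 4-fold and 8.42 at 8-fold, with 182 gains and 26 losses at 16-fold. Gains outnumbered losses at each step up to 64-fold, but at 128-fold there was 1 gain and 2 losses. P-values were also recomputed around the median from the implied standard errors and adjusted over listed windows only. By this criterion 11907 listed windows passed, 56.6% of them higher, against 90.5% of 21121 as deposited with adjustment over all windows. With a t quantile in place of the normal one 12372 passed, 66.0% of them higher. By the normal quantile, of the 19104 gains past the threshold as deposited, 6741 also passed the recomputed one (8161 by the t quantile). The corresponding number was 2017 of 2017 for losses, which the subtraction makes larger, and 3817 of 3961 for all strong gains (3857 by the t quantile), which were chosen by their size. Subtracting the median removes a scaling offset and a real shared change alike.

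The other knockout contrasts are given over the same ranks, and the deposited table has no test of the difference between contrasts. In Teff cells at 72 h, 57355 windows (14.0%) passed the same threshold, with gains making up 77.8% of those listed. Their share was 96.8% in ranks 1 to 1000, but 83.2% in ranks 10001 to 20000, 62.8% in ranks 50001 to 100000 and 53.6% in ranks 100001 to 200000. Teff cells had 2035 strong gains and 194 strong losses, so that the count of strong losses was close to the 204 in Tcmp cells while that of strong gains was smaller. With each contrast's median subtracted the strong gains were 1853 in Teff and 2279 in Tcmp cells, and the strong losses 230 and 610, or 8.06 and 3.74 gains per loss. By the normal quantile, the share of gains past the recomputed threshold was then 72.5% in Teff and 56.6% in Tcmp cells, so the order of the labels turned round. With a t quantile the Tcmp share was 66.0%, and no such value was computed for the other contrasts. In Th1 cells at 24 h, 136592 windows (33.3%) passed it, with gains making up 8.77% of those listed, and strong gains and losses numbered 143 and 252. With the median subtracted the Th1 direction turned round too, to 76.9% gains past the recomputed threshold (normal quantile). Strong gains then numbered 579 and strong losses 54. Time and cell label change together between the Th1 and Tcmp contrasts.

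Single windows could be followed from Tcmp to Teff cells through their exact fold changes. A window's value in the pooled 72 h contrast is the average of its Tcmp and Teff values, so sets of values that fulfil this within 2e-14 were read as 1 window. There were 1834 matches, 1802 after those with shared values were removed. In 5 searches with a slightly offset target, 5 to 12 matches were found. The pooled contrast served only for matching.

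Every matched strong gain of Tcmp cells was also a gain in Teff cells, mostly a smaller one. The 109 matched windows with a log2 fold change of at least 2 in Tcmp cells had a median of 2.69 there and of 1.82 in Teff cells, where they ranged from 0.12 to 4.20. Of these, 93 were past the threshold in Teff cells, and 46 were strong gains there. The Tcmp value was the higher one in 98 of 109, by a median of 0.81 (quartiles 0.53 and 1.22). Over all matched windows the Tcmp value was the higher one in 1512 of 1802 (83.9%), by a median of 0.41, so a smaller Teff value was common to most windows. Among the 7 matched gains in ranks 1 to 1000 the medians were 4.28 and 2.64. These windows were chosen by their Tcmp value, which favours a higher Tcmp value. For the 52 windows chosen by a Teff value of at least 2, the Tcmp value was higher in 35, by a median of 0.47, and for 79 chosen by a mean of at least 2 it was higher in 65, by 0.72.

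The deposited values of losses in both labels depended on how the windows were chosen. The 38 matched windows with a log2 fold change of at most -1 in Tcmp cells were all losses in Teff cells, with medians of -1.49 and -1.56. The Tcmp value minus the Teff value had a median of 0.07 (quartiles -0.38 and 0.28), of 0.34 over 66 windows chosen by a Teff value of at most -1, and of 0.20 over 42 chosen by a mean of at most -1, where the Tcmp value was the higher one, the smaller loss, in 30. The strongest matched loss was at rank 8 in Tcmp cells, with -6.36, and at rank 1 in Teff cells, with -7.12. The second strongest had -3.87 and -3.95. The centres of the 2 contrasts differ by 0.44. With each median subtracted, the difference became 0.37 for the 109 strong gains and -0.37 for the 38 losses, both chosen by their Tcmp value. Chosen by the Teff value it was 0.03 for the 52 gains and -0.10 for the 66 losses, and over all matched windows it was -0.03. Chosen by the mean, the centred difference was 0.28 for the 79 gains and -0.24 for the 42 losses. These gains were cut at 2 and the losses at -1. With gains cut at 1, the centred difference was 0.18 for 344 windows chosen by Tcmp value and 0.055 for 252 chosen by the mean. A larger centred change in Tcmp cells was thus seen for windows chosen by Tcmp value or by the mean. For gains its size depended on the cut. For windows chosen by Teff value, which favours a larger Teff change, the centred difference was smaller. The difference between labels has no deposited test.

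**Figure D5:**
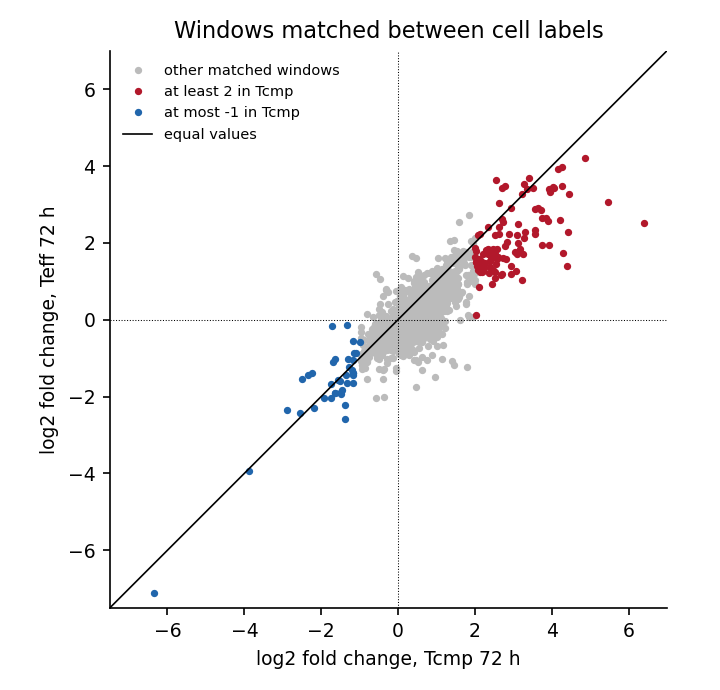
Log2 fold change, Id3-KO over WT, of 1802 matched windows in Tcmp (x axis) and Teff cells (y axis), with windows of at least 2 in Tcmp cells in red and of at most -1 in blue. The red points lie mostly under the line of equal values (98 of 109), as do most of all points (1512 of 1802), and the blue points lie on both sides of it.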

How the data were processed

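ATAC-seq of 18 samples (6 groups of 3) was available as a table of the authors' own contrasts. The submitters' processing notes list Trim Galore, BWA, Picard, edgeR and GRCm39, with no version or role. Per the file headers, the deposited values are a log2 fold change of a best window, a p-value and an adjusted p-value per region, with numbers of windows. The sources used here do not state the normalization, and depth is unknown, so limits set by it were not judged.

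Windows were ranked by their running number. The window p-value is the region p-value divided by its number of windows, and the threshold is the last rank that met the Benjamini-Hochberg criterion at 0.05 over all windows. This reading was not shown directly. Where the region p was 1, p was interpolated over ranks for centred values only. Recomputed p-values of centred values were adjusted over the listed windows, not over all windows. The contrast was read as Id3-KO over WT, as its name gives it. The code for ranks, directions and matching was checked on simulated data, and centring only with no shift. The simulated windows were sorted by p-value beforehand, so this check cannot test the reading of the running number as a rank. Python 3.11.15, numpy 2.4.6, pandas 2.3.3, scipy 1.17.1 and numba 0.67.0 were used. The number of per-sample columns left unused was 0.

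Strong changes were set at a log2 fold change of 2, and rank bins and other choices were made with earlier results of these data known. No gene was named, by rule, because values were not read as belonging to their row. Alternatives were a stricter threshold, a minimum fold change, region counts, centring, weighting by windows per region, other steps and bins, a t quantile and other match tolerances. Steps above 32-fold, recomputed p-values after centring, the choice of matched windows by Teff value or mean, and the subtraction of medians from matched windows and from the Teff strong gains were added after the data had been seen.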

Additional observations from a re-analysis of the deposited data

How the results depend on the processing

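No paired analysis was possible because values per sample are not in the table analysed here, which also kept each replicate in turn from being left out. Of the 46 alternative values computed, 32 stayed within the bounds set for them, 13 moved further and 1 changed sign. The 32 include large shifts, so their number does not measure stability. Among them the Tcmp minus Teff difference of matched gains went from 0.81 to 0.37 with medians subtracted. That of matched losses went from 0.07 to 0.34 when chosen by Teff value. The 21121 listed windows past the threshold became 12461 at an adjusted p of 0.01, 13081 with a minimum size of 1 for the log2 fold change, 12357 as regions by the deposited adjusted p, and 11907 with the median subtracted and p recomputed by a normal quantile and 12372 by a t quantile. The last pair, adjusted over listed windows only, also moved the share of gains from 90.5% to 56.6% and 66.0%. Weighting by windows per region gave 90.5%. Of the 32, 7 subtract the median from the same windows past the threshold, where no direction can change because the smallest gain, 0.63, exceeds the median of 0.51, so they say nothing of stability. The 3961 strong gains became 6664 at a log2 fold change of 1.5, 1339 at 3 and 2279 with the median subtracted, and the 204 strong losses became 610. With 10 equal bins the share of gains was 92.2% in the first and 56.8% in the last. The median implied standard error past the threshold was 0.32 by the normal and 0.22 by a t quantile with 12 degrees of freedom. These 12 degrees of freedom were an assumption, since the processing notes give no role for the listed tools. The value that changed sign was the median Tcmp minus Teff difference of matched losses, 0.07 as deposited and -0.37 with each median subtracted, neither of them tested. Other match tolerances left the Teff median of matched strong gains at 1.82.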

Other observations

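For a few matched windows the values in the Teff against Tcmp contrasts of each genotype were found as well. Where each knockout group is set against WT cells of the same label, the Teff minus the Tcmp knockout value equals the Id3-KO minus the WT value of Teff over Tcmp. This held within 3e-14 for 71 combinations, 61 after those with shared values were removed, and searches with an offset target gave 0 or 1. These contrasts share samples with the Tcmp contrast and with each other, so their values are set side by side with no test.

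Of the 61 windows, 5 were strong gains in Tcmp cells. The first, at rank 5961, had a knockout log2 fold change of 3.25 in Tcmp and 1.72 in Teff cells, and its Teff over Tcmp value was -0.99 in Id3-KO and 0.54 in WT cells. The second, at rank 12587, had 2.07 and 1.40 for the knockout, and -0.50 in Id3-KO and 0.17 in WT cells for Teff over Tcmp. At rank 13555 the knockout values were 3.86 and 2.64, and the Teff over Tcmp values -0.88 and 0.34. At rank 15565 they were 2.04 and 1.51, and -0.43 and 0.10. The last, at rank 39625, had 2.95 and 1.19, and -0.37 and 1.39. In the knockout these 5 windows had Teff over Tcmp values below 0, as did 60 of all 61 (median -0.91). In WT cells the 5 were higher in Teff cells, while 51 of all 61 were lower (median -0.48). The 8 windows with a Tcmp value between 1 and 2 did not share this: they were lower in Teff cells in 8 of 8 in both genotypes, with medians of -0.89 in Id3-KO and -0.74 in WT cells. The 39 windows with a Tcmp value between 0 and 1 had a median Teff over Tcmp value of -0.94 in Id3-KO and -0.44 in WT cells, and the 9 with a Tcmp value below 0 had medians of -0.64 and -0.63. The WT Tcmp level enters both the knockout value in Tcmp cells and the WT Teff over Tcmp value, so these values are not independent.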
